A study of Mus musculus with 78 samples.

Results

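The late-life step from 20 to 28 months was read in the soleus of male C57Bl/6 mice, from 5 libraries of 28-month mice and 9 libraries of 20-month mice. These are 14 of the 78 libraries of the series, chosen by their names: the 28-month control libraries of batch 1 and every male 20-month library. All 14 carry the treatment label Control and the batch label 1, no transgene or other agent is named, and each library is labelled as a separate replicate (numbered 11 to 15 at 28 months and 1 to 9 at 20 months). Nothing further says how replicates were drawn, so p-values measure the spread between libraries. For single genes edgeR estimated that spread over all 11 groups of the series (77 replicates), not over these 14 libraries alone. The 20-month mice came from the Jackson laboratory and were acclimatised for 2 months. The 28-month mice belonged to a separate cohort that arrived at 17 months of age, was acclimatised for 3 months, was randomised to control or compound feed and was scored for frailty every other month. Age, cohort and handling therefore cannot be told apart in this comparison.

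The soleus is a postural calf muscle built mainly of slow and oxidative fast fibres, densely supplied with capillaries and rich in mitochondria. In old age muscles lose mass and force, some fibres lose their nerve contact, and denervated fibres switch on genes of the embryonic acetylcholine receptor and of cell-cycle arrest. Bulk RNA from a whole muscle also holds transcripts of vessel, nerve, fat and connective tissue cells, and in such RNA fewer cells of a type and less RNA per cell cannot be told apart.

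All 14 libraries had the transcripts of slow skeletal muscle. Acta1, skeletal alpha-actin, lay between 17830 and 23720 CPM (counts scaled to a library of 1000000) at 20 months and between 26770 and 28600 CPM at 28 months. Ddx3y, a Y-linked gene, was at 58.9 CPM or more in all 14 libraries and Xist, the X-inactivation transcript, at 0.0713 CPM or less, as the male labels require. Total counts per library ran from 32520111 to 61465685 at 20 months and from 28450196 to 38769703 at 28 months. Keratinocyte markers summed to 44.4 CPM at most and neutrophil markers to 4.54 CPM at most, and 14 of 17 neutrophil and 14 of 20 lymphocyte markers stayed under 1 CPM in all 14 libraries. In the 28-month libraries 11 and 12 Schwann cell and myelin transcripts summed to 679 and 639 CPM, against 173 to 184 CPM in the other 3 and 150 to 379 CPM at 20 months. Library 13 held 21.3% of its adult myosin counts as Myh4, the fastest myosin, where the other 28-month libraries held 0.227% or less.

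Of 18218 genes tested, 1503 were higher (8.25%) and 1599 lower (8.78%) at 28 months in edgeR's quasi-likelihood test, at a Benjamini-Hochberg adjusted p under 0.05. The median log2 fold change over all genes was 0.000646. The direction followed transcript length: genes called higher had a median transcript of 1247 bases, genes called lower one of 5219 bases, and all genes tested one of 2495 bases. Across the 17766 genes with a known length the fold change had a Spearman correlation of -0.502 with length, a description across genes, which are not independent replicates. In the decile of shortest genes, up to 896 bases, 415 were higher and 5 lower, and in that of the longest, from 5372 bases, 8 were higher and 766 lower.

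The length trend separated the libraries without overlap. The correlation of each library's log2 deviation with transcript length was -0.410, -0.379, -0.262, -0.290 and -0.297 in the 28-month libraries 11 to 15. At 20 months it ran from -0.0898 through a median of 0.242 to 0.392, with library 3 the only one below 0. Libraries labelled male of the other ages lay on the side of the 28-month group, between -0.506 and -0.334 at 6 months and between -0.522 and -0.369 at 12 months. Each of these groups of 6 holds 1 library with female transcripts against its label; without it the ranges were -0.506 to -0.334 and -0.522 to -0.492. The mice of 6 and 12 months came from another supplier. The 10 control males of 28 months in batch 2 ran from -0.188 to 0.136, also without the 1 among them that held many keratinocyte transcripts. What produced the trend was not tested.

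A second fit carried an offset for each library and gene, a smooth curve on transcript length and GC content. With these offsets the correlation with length was 0.0503, and 428 genes were higher (2.35%) and 273 lower (1.5%). The share of higher genes among the calls was 48.5% without the offsets and 61.1% with them. Both fits called 222 genes higher and 241 lower. Values with the offsets stand beside the main genes and gene groups, because the choice between the fits changes many of the calls.

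**Figure D1:**
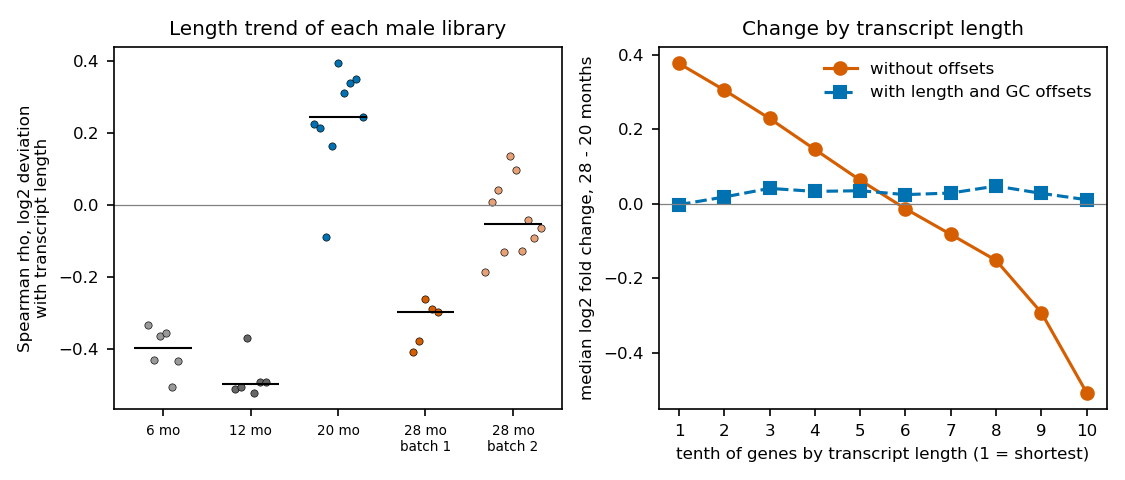
Left, the Spearman correlation of the log2 deviation of each library labelled male (from the mean of the 14 compared libraries) with transcript length, by age and batch; points are libraries and bars are medians. Right, the median log2 fold change, 28 minus 20 months, of genes in deciles of transcript length: without offsets it runs from 0.38 in the shortest decile to -0.51 in the longest, and with offsets it stays within 0.05 of 0.

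The deepest fall among the genes named here was in Zbtb20. This zinc-finger repressor (ENSMUSG00000022708, chr16:42875881-43642602 in mm10), was at 28.9, 39.7, 56.5, 47.6 and 61.8 CPM in libraries 11 to 15. At 20 months it ran from 122 through a median of 146 to 215 CPM, so the groups were far apart. The log2 fold change was -1.75 ± 0.24 (SE; adjusted p = 4.53e-07) and -1.71 with the offsets (adjusted p = 1.69e-06). Hipk2, a stress-activated nuclear kinase, was at 17.3, 33.9, 67.3, 62.9 and 65.0 CPM against 88.2, 156 and 199 CPM (lowest, median and highest at 20 months). It fell by 1.59 ± 0.31 on the log2 scale (adjusted p = 0.000162) and by 1.41 with the offsets (adjusted p = 0.00115). Library 11 held the lowest value of both genes.

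Tnrc6b, a scaffold of microRNA silencing with a 17332-base transcript, was at 15.2, 22.6, 32.1, 31.8 and 35.6 CPM at 28 months and between 65.5 and 94.1 CPM at 20 months, without overlap. Its log2 fold change was -1.49 ± 0.19 (adjusted p = 9.78e-08) and -0.70 with the offsets (adjusted p = 3.44e-06). Lnpep, the insulin-regulated aminopeptidase of glucose-transporter vesicles, fell by 1.46 ± 0.17 (adjusted p = 2.74e-08) from a 20-month median of 109 CPM to between 26.7 and 44.7 CPM, and by 0.70 with the offsets. Nos1, the neuronal nitric oxide synthase that sits at the sarcolemma with dystrophin, was at 7.70, 6.61, 18.3, 9.81 and 11.0 CPM against 17.6, 32.6 and 41.2 CPM. Its groups touched through library 13, and it fell by 1.56 ± 0.38 (adjusted p = 0.00252; 0.0278 with the offsets).

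The other 5 of the 10 largest falls ran the same way. Slc38a1, a glutamine transporter, was at 0.985 to 2.22 CPM against 2.74 to 9.37 CPM and fell by 1.72 ± 0.34. Itga1, the collagen-binding integrin alpha-1 chain, fell by 1.39 ± 0.21, Zfp366 by 1.38 ± 0.28 and Zbtb37, another zinc-finger gene, by 1.37 ± 0.23, each with no overlap between the groups. St8sia4, a polysialyltransferase, fell by 1.36 ± 0.30 (adjusted p = 0.000848), but its value with the offsets was -0.64 (adjusted p = 0.286). Of the 10 largest falls St8sia4 was the only one that did not pass with the offsets.

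For Zbtb20 and Hipk2 the median at 20 months was above that of every other group labelled male. Zbtb20 had medians of 30.8 CPM at 6 months, 19.4 CPM at 12 months, 146 CPM at 20 months and 47.6 CPM at 28 months in batch 1. In the 28-month control males of batch 2 its median was 103 CPM. Hipk2 had medians of 32.4, 8.11, 156 and 62.9 CPM in the same order, and 80.3 CPM in batch 2. Without the doubtful library of each group the medians of Zbtb20 were 30.5, 18.6 and 103.3 CPM at 6 months, 12 months and in batch 2, and those of Hipk2 32.5, 7.90 and 82.6 CPM. For both genes the 28-month median of batch 1 lay between those of 6 and 20 months.

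**Figure D2:**
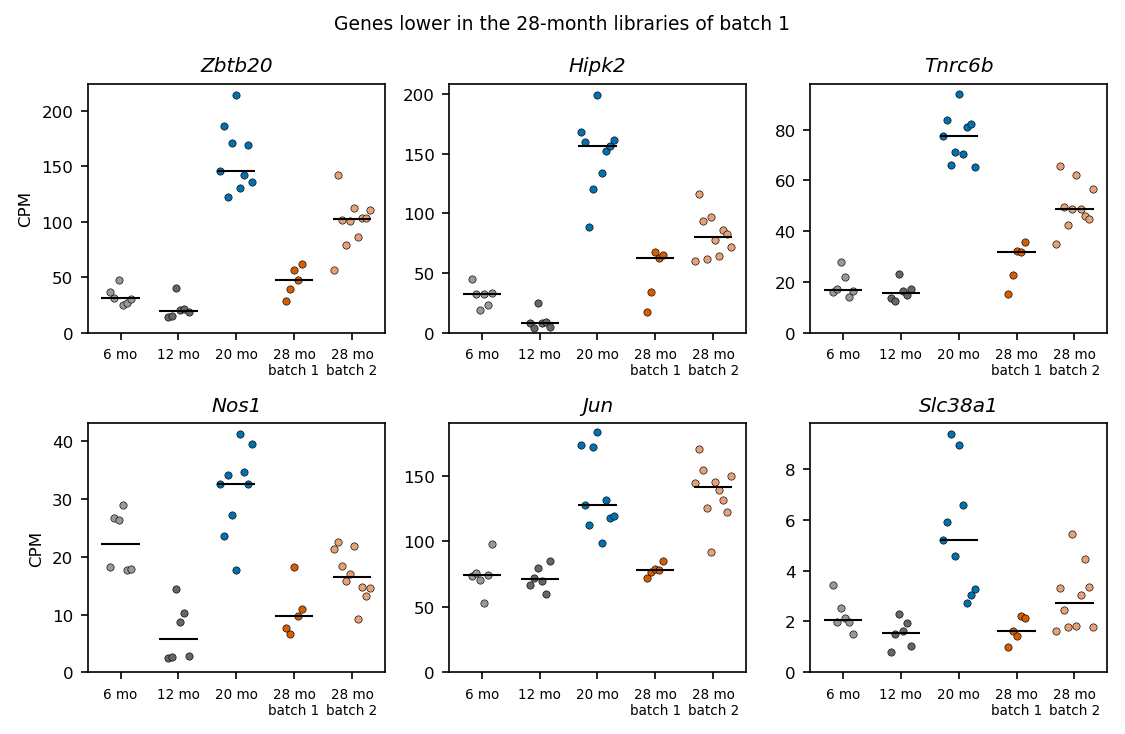
CPM of 6 genes that were lower in the 28-month libraries of batch 1 than at 20 months, by age and batch, linear axes from 0; points are libraries labelled male (1 each at 6 and 12 months against its label) and bars are medians. The 20-month medians are highest for Zbtb20, Hipk2, Tnrc6b, Nos1 and Slc38a1, while Jun in batch 2 (median 142 CPM) lies with the 20-month libraries.

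The largest rise among the genes named here was in Krt18, a keratin of simple epithelia that is barely transcribed in healthy muscle (ENSMUSG00000023043, chr15:102028180-102032027). It was at 0.448, 0.190, 9.52, 0.0607 and 23.5 CPM in libraries 11 to 15, against 0.0879, 0.302 and 0.475 CPM. Libraries 13 and 15 were high, libraries 11 and 12 lay within the 20-month range and library 14 lay below it. The fitted log2 fold change was 4.56 ± 1.05 (adjusted p = 0.00133; 4.35 and 0.00635 with the offsets), and it ran from 3.13 to 4.88 when single libraries were left out. In batch 2 the 10 males ran from 0.0131 through a median of 2.73 to 36.9 CPM (median 2.60 and highest 18.3 CPM without the library with keratinocyte transcripts).

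Among the 10 rises named for their size (past the threshold in every fit without 1 library, at least 5 CPM) the others were smaller. Apart from Gadd45g, described below, they were also more even. Lgals4, a galectin, was at 24.0, 23.3, 20.4, 14.8 and 19.2 CPM against 5.86, 8.65 and 16.6 CPM, a rise of 1.07 ± 0.28 (adjusted p = 0.00419; 0.80 and 0.105 with the offsets). Nrxn2, a presynaptic adhesion molecule with a long transcript, was at 11.2, 12.8, 8.74, 8.38 and 7.60 CPM against 3.54, 4.46 and 6.78 CPM. It rose by 1.03 ± 0.27 (adjusted p = 0.00411) and by 1.31 with the offsets (adjusted p = 0.00188), with no overlap. Rpl22l1, a paralogue of a ribosomal protein, rose by 0.91 ± 0.20 from 18.3 to 24.2 CPM at 20 months to 34.0 to 46.2 CPM and passed with the offsets (0.58, adjusted p = 0.00164). Wdr89 rose by 0.90 ± 0.23, also with the offsets (0.97, adjusted p = 0.00903). Snhg20 (1.03 ± 0.26), C1qtnf4 (1.02 ± 0.27), Myl6b (0.92 ± 0.24) and Yjefn3 (0.84 ± 0.21) rose without the offsets and had adjusted p-values of 0.14, 0.0647, 0.343 and 0.344 with them.

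Stress, cell-cycle arrest and denervation genes were high in a few 28-month libraries. Gadd45a, a growth-arrest gene switched on in denervated fibres (ENSMUSG00000036390, chr6:67035096-67037457), was at 13.3, 11.2, 41.5, 11.9 and 161 CPM against 6.75, 9.12 and 15.0 CPM. It rose by 2.26 ± 0.52 (adjusted p = 0.00144; 1.94 and 0.0171 with the offsets), and without library 15 the value was 0.96 (adjusted p = 0.243). Cdkn1a, the p21 inhibitor of cell-cycle kinases, was at 31.4, 31.9, 36.5, 25.5 and 91.2 CPM against 13.5, 16.9 and 18.7 CPM. All 5 libraries lay above all 9 of 20 months. The rise was 1.39 ± 0.37 (adjusted p = 0.00491), with an adjusted p of 0.0593 with the offsets and of 0.0988 without library 15 (log2 fold change 0.92).

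Chrng, the gamma subunit of the embryonic acetylcholine receptor, was at 0.448, 0.695, 2.21, 0.304 and 12.1 CPM against 0.0164, 0.178 and 0.785 CPM. It rose by 3.40 ± 0.83 (adjusted p = 0.00229; 3.43 and 0.00633 with the offsets), and without library 15 the value was 1.61 (adjusted p = 0.225). Myog, the myogenic regulator that drives receptor genes, was at 6.09, 6.04, 4.65, 3.70 and 17.8 CPM against 2.13 to 4.55 CPM and did not pass (1.22 ± 0.46, adjusted p = 0.0539). Mymx, a membrane fusion peptide of myoblasts, was at 0.3 CPM or less in 4 of the libraries and at 3.22 CPM in library 15. Its adjusted p of 0.0168 became 0.602 without that library. The same library 15 was thus the highest for Krt18, Gadd45a, Cdkn1a, Chrng, Myog and Mymx, and it had the lowest mitochondrial genome share (13.2% of counts).

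Within the denervation list 2 of 22 tested members rose (9.09%, against 8.25% of all genes; Gadd45a and Cdkn1a). Of the list 1 member (4.55%, against 8.78%), Hdac9, a class II histone deacetylase, fell (-0.69 ± 0.23, adjusted p = 0.0289). Without library 15 neither rise remained, and the Hdac9 call was lost without library 11 (adjusted p = 0.116) or 15 (adjusted p = 0.0653). The median of the list was 0.55. In the neuromuscular junction list 2 of 21 members rose and 2 fell (9.52% each, against 8.25% and 8.78% of all genes). The rises were in Chrng and in Rapsn, the receptor-clustering protein (0.37 ± 0.12, adjusted p = 0.0236, and 0.0996 without library 15). Utrn, the junctional relative of dystrophin, fell by 0.94 ± 0.20 (adjusted p = 0.000496; 0.332 with the offsets), and Lamb2, a synaptic laminin, fell by 0.49 ± 0.15 (adjusted p = 0.0134; 0.0831 without library 11). Musk, the receptor kinase of the synapse, did not pass (-0.49 ± 0.21, adjusted p = 0.106). With the offsets Chrng and Chrna1, the alpha subunit of the receptor, were the 2 rises of the list (Chrna1 0.72, adjusted p = 0.0303).

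Of 24 p53 and senescence genes 3 rose (12.5%, against 8.25% of all genes) and 1 fell (4.17%, against 8.78%), and 0 passed with the offsets. Beside Cdkn1a these were Bax, the pore-forming cell-death protein, at 11.0 to 16.5 CPM against 6.48 to 10.1 CPM (0.70 ± 0.14, adjusted p = 0.000383; 0.146 with the offsets), and Ei24 (0.31 ± 0.11, adjusted p = 0.0426), which passed in 3 of the 14 fits without 1 library. Zmat3 fell by 0.62 ± 0.21 (adjusted p = 0.0333), and passed in 9 of those 14 fits. Without library 15 the list held 1 rise. Cdkn2a, the p16 senescence gene, was at 0.448, 0.221, 0.637, 0.121 and 0.192 CPM against 0 to 0.198 CPM and did not pass (adjusted p = 0.102). Gdf15, a stress cytokine, was at 0.606 CPM or less in all 14 libraries (adjusted p = 0.922).

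Gadd45g and Ddit4, also stress genes, were high in libraries 13 to 15. Gadd45g was at 22.3, 43.4, 97.7, 71.2 and 98.1 CPM against 23, 30.2 and 41.0 CPM and rose by 1.08 ± 0.29 (adjusted p = 0.00521; 0.125 with the offsets). Ddit4, an inhibitor of growth signalling, was at 12.2, 12.4, 82.6, 39.4 and 38.1 CPM against 7.80, 13.4 and 24.7 CPM. It rose by 1.28 ± 0.36 (adjusted p = 0.00851; 0.0662 with the offsets), with an adjusted p of 0.195 without library 13. Libraries 11 and 12 lay within the 20-month range for Ddit4. In batch 2 the 28-month values were -0.35 for Gadd45g and -0.11 for Ddit4, so the direction was the opposite there, though neither passed.

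**Figure D3:**
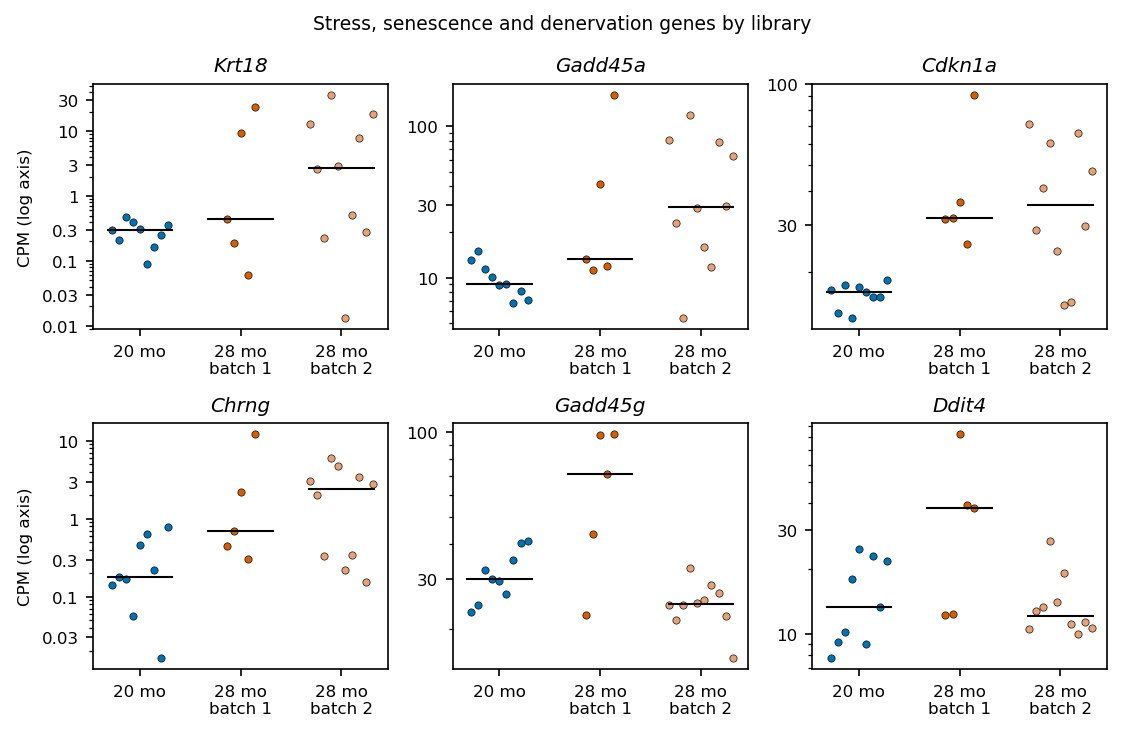
CPM of 6 stress, arrest and denervation genes in males of 20 months, 28 months batch 1 and 28 months batch 2, on log axes; points are libraries and bars are medians. All batch 1 points of Cdkn1a lie above the 20-month points, whereas Krt18, Gadd45a and Chrng are raised most in 2 of the 5 libraries.

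Of 48 cytosolic ribosomal protein genes 45 rose and 0 fell, against 8.25% of all genes tested that rose, with a median log2 fold change of 0.57. With the offsets 19 rose, against 2.35% of all genes, with a median of 0.28, and without libraries 11 and 12 there were 28 rises. Rpl27 was at 262, 259, 245, 246 and 192 CPM against 120, 135 and 179 CPM, a rise of 0.72 ± 0.11 (adjusted p = 6.56e-06; 0.30 and 0.0132 with the offsets). Library 15 was the lowest of the 28-month group and still above every 20-month library. Rps19 (0.77 ± 0.14), Rpl14 (0.67 ± 0.13) and Rps4x (0.56 ± 0.10) also rose in both fits with no overlap. Rpl27 had medians of 329 CPM at 6 months and 329 CPM at 12 months, above both older groups (335.5 and 330.2 CPM without the library against its label). Ribosomal protein genes have many processed copies in the genome, so the estimated counts can be split between them.

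Proteasome subunits, the core and lid proteins of the protease that clears ubiquitin-tagged proteins, rose in 24 of 32 cases (75%, against 8.25% of all genes) and fell in 1. The median was 0.34, and 6 rose with the offsets, where 2.35% of all genes did. The fall was in Psme4, an activator cap of the proteasome (-0.37, adjusted p = 0.0237), named after its value was seen. Psmb4 was at 166, 158, 153, 165 and 162 CPM against 94.2, 110.8 and 128 CPM and rose by 0.55 ± 0.10 (adjusted p = 4.11e-05; 0.29 and 0.0125 with the offsets). The catalytic subunits Psmb6 (0.53 ± 0.10) and Psmb5 (0.55 ± 0.11) and the ubiquitin receptor Psmd4 (0.46 ± 0.10) rose too, but had adjusted p-values of 0.362, 0.549 and 0.332 with the offsets.

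RefSeq promoters (GRCm38.p6, 250 bases before to 50 after each start) were read for the groups that moved together, as a description of their sequence. The E-box CACGTG, which reads the same on both strands, stood in 7.15% of all 32851 promoters, in 8 of 42 promoters of 36 ribosomal protein genes (19%) and in 5 of 29 of mitochondrial ribosome genes (17.2%). It stood in 1 of 28 proteasome promoters (3.57%) and in 0 of 17 of complexes II to IV. It also stood in 5 of 26 promoters of immediate early genes (19.2%), a list with falls only, and in 7 of 25 of p53 and senescence genes (28%). The heat shock unit GAANNTTC, searched on both strands like the rest, stood in 7.86% of all and in 4 of 42 ribosomal promoters (9.52%), and TGATGNAAT in 0.965% of all and in 0 of 42. Motifs were searched separately, so 1 promoter can hold several and matches may overlap. Shown here are stretches upstream of 3 genes that rose without the offsets, with the E-box in capitals, 5′ to 3′ along the gene's strand. With the offsets Rpl14 alone of the 3 passed in edgeR (Mrpl2 adjusted p = 0.686, Gadd45g 0.125). Igf2r, which fell without the offsets, also held an E-box upstream and is not shown. The 3 stretches lie at chr9:120571325-120571378 for Rpl14, chr17:46646066-46646119 for Mrpl2 and chr13:51846509-51846562 for Gadd45g, all on the plus strand.
Rpl14: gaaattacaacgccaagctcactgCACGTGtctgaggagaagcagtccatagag
Mrpl2: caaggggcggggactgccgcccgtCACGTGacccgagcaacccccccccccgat
Gadd45g: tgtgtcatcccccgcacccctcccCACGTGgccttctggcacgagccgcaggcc

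Nuclear genes of the mitochondrion rose in large numbers without the offsets and in small numbers with them. Of all genes 8.25% rose without the offsets and 2.35% with them. Complex I, the entry point of the respiratory chain, had 27 rises among 35 subunits (median 0.47), and 1, Ndufb2, with the offsets (0.58, adjusted p = 0.0233; list median 0.09). Complexes II to IV had 13 among 25 (median 0.41) and 1, the electron carrier Cycs, with the offsets (0.59, adjusted p = 0.00988), and ATP synthase 9 among 15 (median 0.41) and 1 with the offsets. Ndufb11 was at 244, 246, 217, 221 and 213 CPM against 131, 149 and 188 CPM, a rise of 0.60 ± 0.14 (adjusted p = 0.0013; 0.26 and 0.0864 with the offsets). Ndufs7 (0.56 ± 0.13), Ndufc2 (0.55 ± 0.13) and Ndufa13 (0.65 ± 0.16) rose as well, and Cox4i1, a core-associated subunit of cytochrome oxidase, rose by 0.50 ± 0.14 with 858 CPM or more at 28 months and 799 CPM or less at 20 months. None of these passed with the offsets. The median transcript of the complex I genes was 782 bases.

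Atp5g1, the proton-ring subunit of ATP synthase with an annotated median transcript of 2675.5 bases, was the exception in its group. It was at 727, 733, 654, 632 and 649 CPM against 393, 446 and 558 CPM, and rose by 0.58 ± 0.16 (adjusted p = 0.00529) and by 0.61 with the offsets (adjusted p = 0.0146). The other ATP synthase subunits named by p, Atp5j, Atp5o and Atp5h, rose by 0.53, 0.45 and 0.41 and did not pass with the offsets (adjusted p = 0.442, 0.805 and 0.903). Atp5j and Atp5h lost the call without library 12 (adjusted p = 0.0562 and 0.0663). The counts were lower in fits without library 11 or 12, the 28-month libraries with the strongest length trend and the most myelin transcripts. Without library 11 complex I had 15 rises and without library 12 it had 16. Complexes II to IV had 7 and 7 in the same fits and ATP synthase 5 and 2. Without both libraries complex I had 5 rises, complexes II to IV 0 and ATP synthase 0. Over all genes that fit called 605 higher and 813 lower. Whether these libraries or the smaller 28-month group lowered the counts was not tested. Leaving out library 13 at 28 months or library 5 or 7 at 20 months left complexes II to IV with 8, 7 and 8 rises.

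For the next lists too the background is 8.25% of all genes higher without the offsets and 2.35% with them. The mitochondrial ribosome had 23 rises among 30 genes (median 0.42) and 7 with the offsets, and the import and cristae genes 19 among 26 (median 0.41) and 5 with the offsets. Without libraries 11 and 12 these counts were 6 and 5. Phb2, a prohibitin of the inner membrane, was at 195, 173, 173, 187 and 173 CPM against 104, 116 and 143 CPM and rose by 0.61 ± 0.11 (adjusted p = 2.9e-05; 0.33 and 0.00988 with the offsets). Mrpl9 rose by 0.41 ± 0.09 in the same way (0.28 and 0.0186 with the offsets). Tomm40, the outer membrane pore, and Timm50 and Timm13 of the inner membrane rose by 0.44, 0.47 and 0.65 but had adjusted p-values of 0.254, 0.161 and 0.521 with the offsets. Fatty acid uptake and oxidation had 8 rises among 25 genes and 0 with the offsets. Plin5, the lipid-droplet protein that docks mitochondria, was at 68.3 to 91.3 CPM against 46.6 to 59.5 CPM (0.65 ± 0.18, adjusted p = 0.0078; 0.13 with the offsets). Eci2, Etfb and Eci1 rose by 0.47, 0.57 and 0.55, and the list held 5 rises without library 12 and 2 without libraries 11 and 12.

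**Figure D4:**
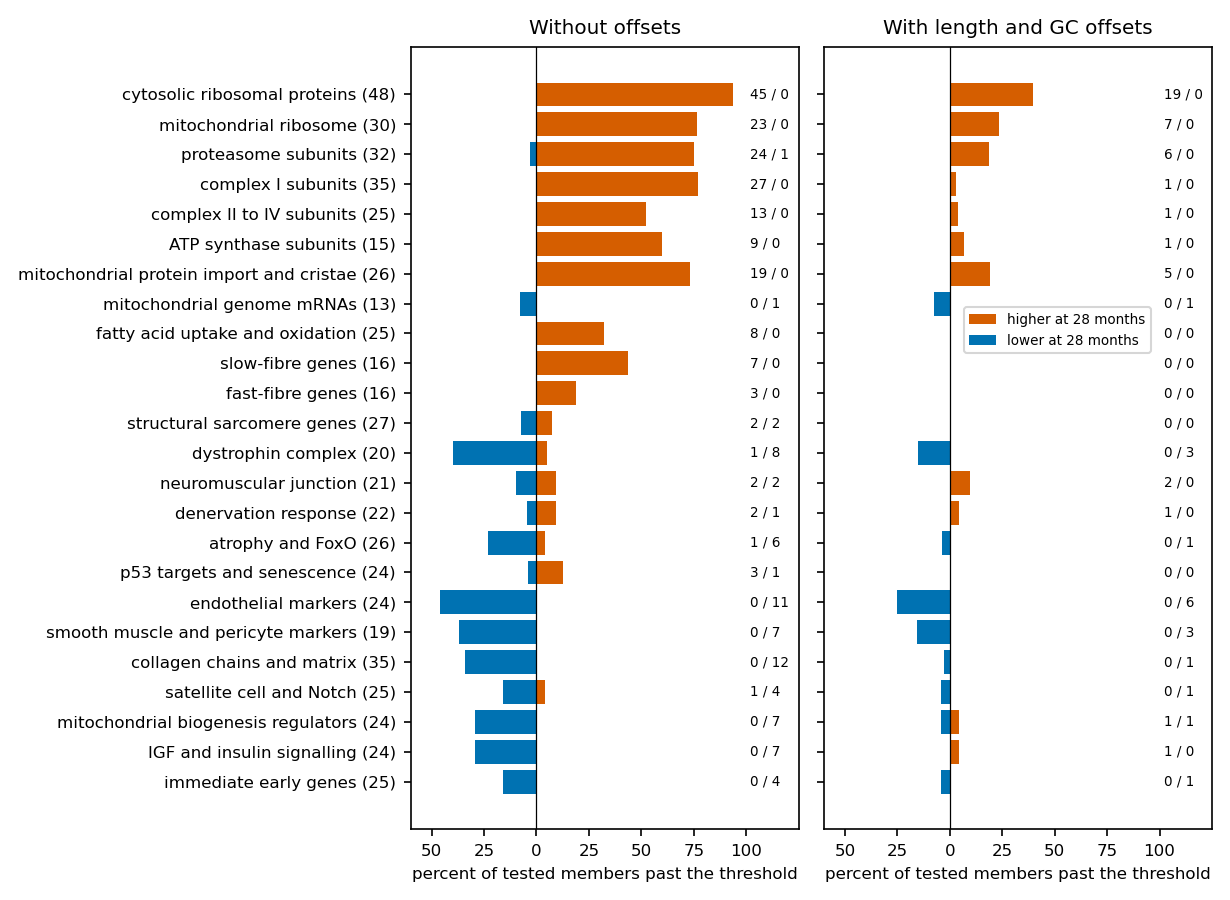
Share of the tested members of 24 gene lists (number tested in brackets) that were past the threshold, higher to the right and lower to the left, without offsets and with length and GC offsets; the figures at the right of each panel are the numbers higher and lower. Ribosomal protein genes have 45 rises without and 19 with the offsets, and complex I genes 27 and 1.

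The 13 mRNAs of the mitochondrial genome did not move with the nuclear genes. Of them 0 rose and 1 fell in edgeR, against 8.78% of all genes that fell. mt-Nd5, a core subunit of complex I, was at 6536, 11530, 16680, 11820 and 7730 CPM against 16380, 18450 and 20330 CPM (-0.77 ± 0.28, adjusted p = 0.0471), and passed in 3 of the 14 fits without 1 library. mt-Co2 and mt-Co3, of cytochrome oxidase, had values of 0.86 ± 0.32 (adjusted p = 0.0531) and 0.81 ± 0.31 (adjusted p = 0.0624). mt-Nd6, the transcript of the other strand, passed with the offsets alone (-0.79, adjusted p = 0.0129; 0.127 without). The share of all counts from the mitochondrial genome was 17.3% ± 2.73 (SD, n = 5) at 28 months and 18.8% ± 0.848 (SD, n = 9) at 20 months, which did not pass an exact two-sided permutation test (p = 0.163, Benjamini-Hochberg 0.814 over 5 shares; smallest p possible 0.0005).

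Fibre type, read from the 4 adult myosin heavy chains, did not differ beyond the spread between libraries. Slow Myh7 made up 42.2% ± 5.83 (SD, n = 5) of adult myosin counts at 28 months and 40.3% ± 10.5 (SD, n = 9) at 20 months (exact permutation p = 0.711). Myh2, of oxidative fast fibres, made up 41.8% ± 5.39 and 41.8% ± 8.30 (exact permutation p = 0.989). Myh1 made up 11.6% ± 6.67 and 15.1% ± 6.79 (exact permutation p = 0.366), and Myh4 4.36% ± 9.48 and 2.74% ± 4.38 (exact permutation p = 0.759). The Benjamini-Hochberg values of the 4 lay between 0.914 and 0.989. Myh4 at 28 months rested on library 13 (21.3%), the other 4 lying between 0.0601% and 0.227%.

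Shorter genes of both fibre types were higher without the offsets, and none with them. Of 16 slow-fibre genes 7 rose (43.8%, against 8.25% of all genes, median 0.49). Tnnt1, slow troponin T, was at 3364, 3441, 3523, 3790 and 4490 CPM against 1772, 2401 and 3356 CPM, just clear of the 20-month libraries, and rose by 0.55 ± 0.15 (adjusted p = 0.00635; 0.707 with the offsets). Myoz2, a calcineurin-binding Z-disc protein, rose by 0.48 ± 0.14 and Tnnc1, slow troponin C, by 0.54 ± 0.16. Without library 14 the list had 4 rises. Of 16 fast-fibre genes 18.8% rose, against 8.25% of all genes: Mylpf (0.64 ± 0.20), Tnnc2 (0.49 ± 0.18) and Myl1 (0.53 ± 0.20). They passed in 12, 6 and 4 of the 14 fits without 1 library, so that none was left without library 12 or 13, and Tpm1 did not pass (adjusted p = 0.0639).

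The list of 27 structural sarcomere genes had 2 falls and 2 rises (7.41% each, against 8.78% and 8.25% of all genes), and 0 calls with the offsets. Neb, encoding the giant protein nebulin, was at 1443, 2602, 3599, 3319 and 3765 CPM against 3372, 4394 and 6282 CPM, lowest in library 11 and overlapping between the groups. It fell by 0.63 ± 0.21 (adjusted p = 0.0276) and changed sign with the offsets (0.20, adjusted p = 0.594). It lost the call without library 11 or 12 or 20-month library 5 (adjusted p = 0.167, 0.0698 and 0.0618). Pdlim7 (0.49 ± 0.14) and Des, the desmin gene (0.43 ± 0.15), rose, Des in 8 of the 14 fits without 1 library. With the offsets they were at 0.17 and 0.45 (adjusted p = 0.498 and 0.0854).

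The dystrophin complex, which ties the fibre's skeleton to the matrix, had 8 falls (40%) and 1 rise (5%) among 20 genes, against 8.78% and 8.25% of all genes. It had 3 falls in the fit with offsets (1.5% of all genes fell there), 5 without library 11 and 3 without libraries 11 and 12. Dystrophin itself, Dmd, was among the falls (-0.74, adjusted p = 0.00575), and the rise was in Cav3, the caveolin of muscle (0.55, adjusted p = 0.0139); both were named after their values were seen. Dag1, dystroglycan, was at 116, 185, 210, 198 and 221 CPM against 237, 302 and 351 CPM and fell by 0.69 ± 0.15 (adjusted p = 0.000694; -0.45 and 0.0354 with the offsets). Sgcd, delta-sarcoglycan, was at 8.93, 13.1, 21.5, 21.5 and 17.6 CPM against 20.0, 30.7 and 37.1 CPM and fell by 0.88 ± 0.21 (adjusted p = 0.00178; -0.90 and 0.00439 with the offsets). Sntb2, a syntrophin, fell by 0.88 ± 0.18 and did not pass with the offsets (adjusted p = 0.172).

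Vessel genes were lower. Of 24 endothelial markers 11 fell (45.8%, against 8.78% of all genes) and 0 rose (median -0.49). With the offsets 6 fell (median -0.37), against 1.5% of all genes. Ptprb, the endothelial phosphatase that restrains the Tie2 receptor, was at 46.5, 47.9, 49.1, 68.1 and 48.9 CPM against 103, 120 and 174 CPM. It fell by 1.28 ± 0.20 (adjusted p = 5.83e-06; -0.64 and 0.00774 with the offsets). Flt1, a VEGF receptor, was at 36.2, 43.8, 39.3, 59.4 and 51.96 CPM against 89.2, 97.9 and 123.5 CPM and fell by 1.13 ± 0.22 (adjusted p = 0.000148; 0.0352 with the offsets). Cdh5, VE-cadherin, fell by 1.02 ± 0.23 in both fits (-0.80 with the offsets, adjusted p = 0.0122), and Kdr, the main VEGF receptor, by 1.01 ± 0.23 without the offsets alone (0.121 with them).

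The summed endothelial markers gave 1137, 918, 652, 949 and 818 CPM in libraries 11 to 15 and 1206 to 1528 CPM at 20 months, with no overlap, and 0 of the 24 markers stayed under 1 CPM. In the males of 6 and 12 months Ptprb had medians of 19.4 and 21.6 CPM and Flt1 of 18.6 and 20.4 CPM, below both older groups. Without the libraries against their label these were 18.9 and 21.8 CPM for Ptprb and 17.1 and 20.5 CPM for Flt1. In batch 2 at 28 months the medians were 75.03 and 62.3 CPM (75.07 and 61.3 CPM without the library with keratinocyte transcripts).

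Smooth muscle and pericyte markers fell in 7 of 19 cases (36.8%, against 8.78% of all genes, median -0.51). With the offsets 3 fell, where 1.5% of all genes did. Rgs5, the classical pericyte gene, was at 321, 272, 247, 292 and 233 CPM against 441, 493 and 536 CPM and fell by 0.85 ± 0.17 (adjusted p = 0.000206; -0.81 and 0.001 with the offsets). Abcc9, a potassium-channel regulator of mural cells, fell by 1.03 ± 0.17 and Notch3, their Notch receptor, by 1.15 ± 0.25, both also with the offsets (adjusted p = 0.0129 and 0.0303). Myh11, smooth muscle myosin, fell by 0.88 ± 0.24 (0.274 with the offsets). The summed level of the list overlapped between the groups and its median was higher at 28 months (11090 to 12600 CPM, median 12090) than at 20 months (10050 to 12040 CPM, median 10250), opposite to the members that fell.

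Collagens and other matrix genes fell in 12 of 35 cases (34.3%, against 8.78% of all genes) and rose in 0 (median -0.54). With the offsets 1 fell, where 1.5% of all genes did, and without library 13 there were 7 falls. Lamc1, the laminin gamma-1 chain of basement membranes, was at 47.3, 47.1, 48.4, 52.7 and 52.2 CPM against 78.5, 96.3 and 129 CPM and fell by 1.02 ± 0.15 (adjusted p = 1.08e-06; -0.51 and 0.00155 with the offsets). Nid1, nidogen, and Col4a2, a type IV collagen chain, fell by 0.99 ± 0.18 and 0.93 ± 0.23, and Fbln2 by 0.70 ± 0.16, with adjusted p-values of 0.0825, 0.0813 and 0.0635 with the offsets. Summed fibroblast markers were at 1006 to 1821 CPM at 20 months and 631 to 1963 CPM at 28 months, and tendon markers at 420 to 868 and 185 to 579 CPM. Library 13, the lowest of the 28-month group in endothelial, fibroblast and tendon markers, was also the one with the Myh4 counts. The part that connective tissue in a library has in these values was not tested.

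**Figure D5:**
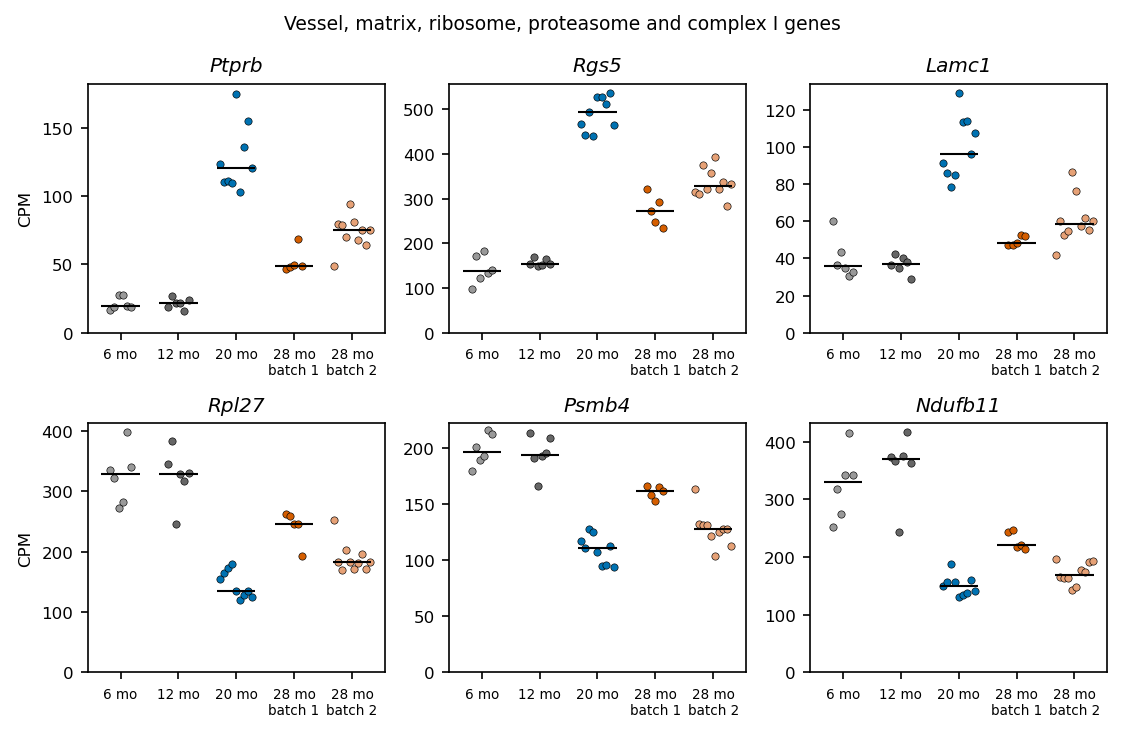
CPM of a vessel, a pericyte, a basement membrane, a ribosomal, a proteasome and a complex I gene in libraries labelled male (1 each at 6 and 12 months against its label) by age and batch, linear axes from 0; points are libraries and bars are medians. In each panel the 5 libraries of 28 months batch 1 are clear of the 9 of 20 months, and their median lies between that of 20 months and those of 6 and 12 months.

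Lists of energy and growth regulators had falls without the offsets and few with them. Of all genes 8.78% fell without the offsets, and with them 1.5% fell and 2.35% rose. Of 24 regulators of mitochondrial biogenesis 7 fell and 0 rose (1 and 1 with the offsets), and 1 fell without libraries 11 and 12. Prkaa2, the AMP-kinase catalytic subunit of muscle, was at 57.8, 104, 142, 118 and 121 CPM against 184, 212 and 236 CPM (-0.98 ± 0.22, adjusted p = 0.0013; 0.324 with the offsets). Esrrg, an oxidative nuclear receptor, fell by 1.08 ± 0.27, and Gabpa and Sirt1 by 0.41 and 0.45, all without passing with the offsets. IGF and insulin signalling had 7 falls among 24 genes, 3 without library 11 or without libraries 11 and 12, and 0 with the offsets, where Rps6kb1, a ribosomal S6 kinase, rose (0.23, adjusted p = 0.049). They included the receptors Igf1r (-0.995 ± 0.20) and Insr (-0.87 ± 0.18) and, as calls lost without library 11, Igf2r (-0.72 ± 0.19) and Rptor (-0.49 ± 0.14), with adjusted p of 0.0562 and 0.0732 there.

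In the atrophy and FoxO list 6 of 26 genes fell (23.1%, against 8.78% of all genes) and Ddit4 rose (3.85%, against 8.25%). Acvr2b, a receptor of myostatin, was at 1.63 to 3.03 CPM against 2.54 to 9.67 CPM and fell by 1.28 ± 0.30 (adjusted p = 0.00177) and by 1.44 with the offsets (adjusted p = 0.0018). The ubiquitin ligases Ubr2 and Nedd4 fell by 0.58 and 0.42 and did not pass with the offsets (adjusted p = 0.767 and 0.562). With the offsets the list had 1 fall, where 1.5% of all genes fell, and without libraries 11 and 12 it had 2. Of 25 satellite cell and Notch genes 4 fell (16%, against 8.78% of all genes) and Mymx rose (4%, against 8.25%). Notch1 was at 8.36 to 12.5 CPM against 21.7 to 33.1 CPM (-1.29 ± 0.30, adjusted p = 0.0017; 0.121 with the offsets), and Rbpj, the transcription factor of the pathway, fell by 0.47 ± 0.12 (-0.03 and 0.936 with the offsets).

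Immediate early genes, which respond within minutes to activity and handling, fell in 4 of 25 cases (16%, against 8.78% of all genes). With the offsets 1 of the list fell, where 1.5% of all genes did. Jun was at 72.2, 76.9, 79.1, 78.3 and 85.2 CPM against 98.3, 127 and 184 CPM, with no overlap, and fell by 0.81 ± 0.21 (adjusted p = 0.00345; -0.75 and 0.0225 with the offsets). In batch 2 its change against 20 months was 0.00323. Fosl2 fell by 1.01 ± 0.25 and did not pass with the offsets (adjusted p = 0.161). Nr4a2 and Nr4a3 were at -1.72 ± 0.59 and -1.65 ± 0.60 (adjusted p = 0.0326 and 0.0457), and passed in 7 and 6 of the 14 fits without 1 library. With the offsets they were at -1.53 and -1.2 (adjusted p = 0.145 and 0.323). Without library 11, 12 or 15 or 20-month library 1 the list held 2 falls.

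Smaller sets of calls came from lists of stress defence and turnover, whose members are named here after their values were seen. The background without the offsets is 8.25% of all genes higher and 8.78% lower. Of 28 antioxidant genes 6 rose and 0 fell, among them Sod1, the cytosolic superoxide dismutase (0.51), Gpx4, which detoxifies lipid peroxides (0.53), Txn1, thioredoxin (0.47), and the peroxiredoxins Prdx5, Prdx2 and Prdx6 (0.52, 0.41 and 0.26), and with the offsets the list had 0 calls. Of 26 chaperones 3 fell and 3 rose (11.5% each). The inducible Hspa1b (-1.11) and the co-chaperones Dnajb1 (-0.67) and Dnaja1 (-0.43) fell, whereas Cct2 and Cct5 of the chaperonin ring (0.35 and 0.29) and mitochondrial Hspe1 (0.46) rose. Of 28 autophagy and lysosome genes 3 fell (10.7%) and 2 rose (7.14%). Npc1 (-0.58), Lamp2 (-0.47) and Ulk1 (-0.45) fell, and Gabarap (0.32) and Map1lc3a (0.66), proteins of the autophagosome membrane, rose. Lamp2, a lysosomal membrane protein, also fell with the offsets (-0.44). The unfolded protein response list had 1 fall among 26 genes (3.85%), Dnajc3 (-0.30). This list does not hold the sensor Ern1, described at the end. With the offsets Lamp2 was the only call among the chaperone, autophagy and unfolded protein response lists.

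Metabolic lists were mixed. Of 25 glycolysis and glycogen genes 2 fell (8%, against 8.78% of all genes) and 3 rose (12%, against 8.25%). Hk2, the muscle hexokinase, fell (-0.58), and Gpi1, Pgam2 and Fbp2 rose (0.34, 0.35 and 0.85). Of 22 genes of branched-chain amino acid breakdown 2 fell (9.09%) and 3 rose (13.6%). Among them were Ppm1k and Aldh6a1 (-0.61 and -0.35) and Hsd17b10 and Mcee (0.36 and 0.45). The tricarboxylic acid cycle had 1 rise among 23 genes, Idh3b (0.37). Dohh, Oaz1 and Dhps rose among 16 polyamine genes (0.65, 0.47 and 0.45), the first and the last being the enzymes that make hypusine on a translation factor. Jsrp1 and the calcium-pump inhibitor Mrln rose (0.56 and 0.81) among 22 calcium genes, a share of 9.09% against 8.25% of all genes. With the offsets Gpi1 (0.37, adjusted p = 0.0266) and Dohh (0.30, adjusted p = 0.0352) rose as well, and none of the other genes named from these 5 lists passed.

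In the remaining lists 8.25% (higher) and 8.78% (lower) of all genes are the background, and with the offsets Lifr, Il6st and Plod1 were the only calls. Of 18 growth hormone and SOCS genes 3 fell: the cytokine receptors Lifr (-1.02, adjusted p = 9.8e-08) and Il6st (-0.67), both also with the offsets (-0.83 and -0.58), and Socs5 (-0.55). Nr3c1, the glucocorticoid receptor, and Klf9 fell by 0.63 and 0.61 among 18 glucocorticoid response genes, where Ddit4 was the rise. Rora and Nr1d2 fell by 0.90 and 0.67 among 20 clock genes. Adamts1, Timp3 and Plod1 fell by 0.97, 0.68 and 0.42 among 27 matrix proteases and inhibitors (Plod1 by 0.53 with the offsets). Cxcl12 and Csf1 fell by 0.79 and 0.59 among 25 chemokines and cytokines. Of 20 complement genes 2 fell, among them C3 by 1.0. Cd163 and Mrc1, of resident macrophages, fell by 1.03 and 1.02 among 20 macrophage markers, whose sum overlapped between the groups (119 to 227 CPM and 65.7 to 298 CPM). Of 38 interferon genes Ifi27 rose (0.45), of 20 adipocyte markers Cidea rose (0.78) and Acaca fell (-0.82), and of 18 tendon markers Scx rose (0.91) and Prg4 fell (-1.11). DNA replication (25 genes), Schwann cell (19), fibroblast (15), neutrophil (17), lymphocyte (19), erythroid (7), keratinocyte (12) and imprinted growth genes (16) had 0 calls in edgeR, where the Schwann cell list had a median of 0.60 with libraries 11 and 12 high.

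The same step in females gave 3155 genes higher (17.3%) and 2297 lower (12.6%), from 6 libraries at each age. Markers of other tissues were higher in the 28-month libraries there: 17 of 17 neutrophil and marrow, 12 of 12 keratinocyte, 15 of 19 lymphocyte and 7 of 7 erythroid, as were 19 of 25 DNA replication genes. Of the 6 female libraries of 28 months 3 were doubtful, that is, over 100 CPM in the sum of keratinocyte or of neutrophil and marrow markers (in other groups also those against their sex label), and without such libraries these counts were 8, 0, 15, 0 and 0, with 2693 genes higher (14.8%) and 2376 lower (13%). As those sums chose the libraries, the drop in the keratinocyte and neutrophil lists was in part fixed in advance. The difference between the sexes in the change from 20 to 28 months was tested directly: 0 genes had a larger and 0 a smaller change in males in edgeR, with 1822 at an unadjusted p under 0.05. DESeq2 called 5 and 46, and limma-voom 5 and 17. Without the doubtful libraries edgeR called 25 (0.137%) and 58 (0.318%), with 2232 at an unadjusted p under 0.05. Side by side, the changes in males and females were -1.75 and -1.90 for Zbtb20, 1.39 and 1.29 for Cdkn1a, 2.26 and 2.79 for Gadd45a and -1.28 and -1.60 for Ptprb. They were -1.72 and -0.13 for Slc38a1 and -0.81 and -0.03 for Jun. Without the doubtful libraries the female values were -1.64, 1.55, 3.51, -1.68, -0.20 and 0.36 in the same order of genes. None of these differences passed in either fit.

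Control males of 28 months in batch 2, set against the same 20-month libraries, gave 70 genes higher (0.384%) and 153 lower (0.84%). Without doubtful libraries in any group, 1 of them in batch 2, these were 239 (1.31%) and 261 (1.43%). Because both comparisons use the same 20-month libraries, their values are given side by side only. In batch 2 the changes were 4.86 for Krt18 (adjusted p = 0.00538), 2.19 for Gadd45a (0.00827), 1.27 for Cdkn1a (0.0274), 2.96 for Chrng (0.0277) and -0.79 for Ptprb (0.00523). Those of Zbtb20 and Hipk2 were -0.66 (0.0457) and -0.88 (0.0417), shallower than the -1.75 and -1.59 of batch 1. The median of ribosomal protein genes was 0.33 in batch 2, with 8 rises, and that of complex I genes 0.14, with 0 rises. Without the doubtful libraries 17 ribosomal protein and 0 complex I genes rose, and Krt18 (4.16), Gadd45a (1.92), Cdkn1a (1.2), Chrng (2.69), Ptprb (-0.77), Zbtb20 (-0.61) and Hipk2 (-0.82) passed again.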

How the data were processed

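The compared libraries and the gene lists were chosen with earlier results of these data known. The submitters' processing notes name FastQC, STAR 2.7.11b, RSEM 1.3.3 and mm10. Annotation release and strand setting were not found there, so antisense partners cannot be told apart. The authors deposited expected counts for 36904 gene IDs, and 55 columns that match no sample label were not used. Counts were rounded and low genes removed with filterByExpr (minimum count 10, total 15). edgeR 4.0.16 fitted a quasi-likelihood model with TMM scaling and a mean for each of 11 groups (77 replicates, 1 of them the sum of 2 libraries with a shared animal tag). P-values were adjusted over all genes by Benjamini-Hochberg (threshold 0.05). CPM use TMM factors, and marker sums library totals. Offsets came from splines (5 degrees of freedom) on the median length and GC of GENCODE M21 transcripts, known for 97.5% of genes. Shares were compared by exact permutation. Named genes are the 10 largest rises and falls past the threshold in every fit without 1 library and with at least 5 CPM, the 4 smallest p of each of 24 lists, and fixed myosin, senescence, synapse, sex and muscle genes. Alternatives used DESeq2 1.42.0, limma 3.58.1 (voom), other scaling, filters and groups, and left-out libraries. Chi-square per gene between libraries of a group was 25.5 or more, so none was a copy. Procedures were tested on simulated data. A few genes are not reported here.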

Additional observations from a re-analysis of the deposited data

Results flagged for a closer look

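Among the compared libraries 252 groups of 5 or 9 values were examined, and 17 held a library whose gap to its nearest neighbour was large for the range of its group, where chance alone gives about 1 in 20. In the 28-month group library 15 was apart in 6 cases and highest for 5 of them. Its levels were 12.1 CPM for Chrng (the other libraries 0.304 to 2.21), 161 CPM for Gadd45a (11.2 to 41.5), 91.2 CPM for Cdkn1a (25.5 to 36.5), 17.8 CPM for Myog (3.70 to 6.09) and 3.22 CPM for Mymx (0 to 0.3). It was lowest for Rpl27, at 192 CPM against 245 to 262 CPM. Library 13 held Myh4 at 4901 CPM and 21.3% of adult myosin counts, against 9.65 to 52.6 CPM and 0.0601% to 0.227% in the others. Library 11 was lowest for Lamb2 (70.7 CPM against 97.1 to 106). Library 14 was lowest for Snhg20 (5.37 CPM against 7.18 to 7.56) and highest for Ptprb (68.1 CPM against 46.5 to 49.1).

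In the 20-month group library 3 was apart in 5 cases. Its correlation of deviation with transcript length was -0.0898, against 0.162 to 0.392 in the other 8. It was highest for the short genes Mrpl52 (13.5 CPM against 7.08 to 9.75), Ndufc2 (109 CPM against 79.5 to 93.0), Atp5j (386 CPM against 239 to 301) and Timm13 (44.9 CPM against 27.96 to 36.0). Library 5 was highest for the long gene Igf2r, at 178 CPM against 103 to 131 CPM.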

How the results depend on the processing

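The counts of 1503 higher and 1599 lower genes moved with the length and GC offsets (428 and 273), a test against a fold of 1.2 (152 and 534) and the 28-month males of batch 2 in place of batch 1 (70 and 153). They were 758 and 956 with both batches as 1 group, 605 and 813 without replicates 11 and 12, 2519 and 2705 with only the compared groups fitted, and 3101 and 3485 with limma-voom. With the replicate block they were 269 and 606, although the compared male groups share no replicate numbers and so no pairing. Leaving out 1 library gave 1001 to 1652 higher and 1114 to 1654 lower, lowest without 28-month library 11 for both. DESeq2 (1954 and 1869), RLE scaling, both filters and the other settings stayed within 1.5 times. The sex difference, 0 and 0, was 5 and 46 with DESeq2, 5 and 17 with limma-voom and 25 and 58 without libraries of doubtful tissue or sex in any group, and 0 to 1 and 0 to 2 without 1 library. For the gene counts, the replaced batch and both sets of left-out libraries were chosen after seeing the data. Without 1 library the share differences ran from -2.32 to -0.545 percentage points (mitochondrial genome), 0.206 to 4.17 (Myh7), -1.83 to 1.65 (Myh2), -5.81 to -1.51 (Myh1) and -2.62 to 2.77 (Myh4). With batch 2 the mitochondrial genome share of counts reversed to 0.331 and the Myh2 share of adult myosin counts to -5.34, and on a log2 scale the Myh4 share of adult myosin counts to -1.23. Of 109 named genes past the threshold, 34 also passed with the offsets, 37 with the block, 23 in batch 2 and 86 in every fit without 1 library. The 10 largest rises and 10 largest falls were named for passing all of those fits, so part of the 86 was fixed in advance. Most others were named for the smallest p in their list. Of all 3102 genes called, 1715 passed in every fit without 1 library, and 222 higher and 241 lower passed with the offsets. Neb reversed with the offsets (0.20), and Gadd45g (-0.35), Ddit4 (-0.11) and Jun (0.00323) in batch 2. The cause was not tested. The number of 28-month libraries, 5, limits the precision.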

Other observations

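Genes that passed without and with the offsets, and in every fit without 1 library, and that reached 5 CPM, numbered 152 higher and 197 lower. Those named here were chosen after their values were seen. Of those picked, several are signals and regulators of vessels, a grouping made by hand that was not tested over the whole set. Nrp1, a co-receptor of VEGF and semaphorins, was at 15.7 to 20.5 CPM at 28 months and 32.3 to 57.2 CPM at 20 months, a fall of 1.33 on the log2 scale (edgeR adjusted p = 7.81e-06; -1.14 with the offsets). Erg, an endothelial transcription factor, fell by 1.09 (adjusted p = 0.00193; -1.17 with the offsets), and Vwf, the clotting factor stored in endothelium, by 1.04 (adjusted p = 0.00911). Kitl, the stem cell factor, fell by 0.91 from 55.4 to 83.8 CPM to 27.97 to 44.2 CPM (adjusted p = 5.31e-05; -1.10 with the offsets). Fgf2, a growth factor, fell by 0.70 (adjusted p = 4.53e-05; 15.0 to 22.3 CPM against 26.2 to 37.1 CPM). Among regulators in muscle, Tead1, the partner of the Hippo co-activators, fell by 1.24 from 366.8 to 536.9 CPM to 109.6 to 253.1 CPM (edgeR adjusted p = 0.000465, and -1.40 with the offsets). Ern1, a sensor of the unfolded protein response, fell by 0.85 (edgeR adjusted p = 2.41e-05). The annotated transcripts of Fgf2, Kitl, Ern1, Tead1, Erg and Vwf had 535, 1260, 1308.5, 1495, 2073 and 2184 bases, and their falls were deeper with the offsets. That of Nrp1 had 3597 bases, and its fall was shallower with them. The offsets rest on these annotated lengths, so passing with them is not independent of the length trend.

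Rises that met these conditions included mitochondrial ribosome genes. Mrps26 and Mrpl51 were at 38.1 to 39.5 CPM and 110.5 to 122.5 CPM at 28 months, against 19.9 to 31.98 CPM and 65.3 to 100.3 CPM at 20 months. Their annotated transcripts, 4278 and 3427 bases, were long beside the median of 1224.5 bases in the mitochondrial ribosome list. With the offsets their log2 fold changes went up, from 0.615 to 0.907 and from 0.531 to 0.719. Ptrh2, a peptidyl-tRNA hydrolase of mitochondria with a 3038-base transcript, rose by 0.66 (edgeR adjusted p = 4.68e-06, and 0.81 with the offsets). Irf2bp2, a transcriptional co-repressor with a 5080-base transcript, rose by 0.68 (edgeR adjusted p = 0.00352). For Nrp1, Kitl, Fgf2, Tead1, Mrps26, Mrpl51 and Ptrh2 the groups did not overlap.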
